A study of Chlamydomonas reinhardtii with 8 samples.

Results

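The step from 12 to 24 h of zinc resupply compares, gene by gene, 2 conditions of strain CC-4532 of Chlamydomonas reinhardtii, a single-celled green alga. Both conditions began as zinc-limited cultures that had passed through a second round of growth without added zinc and then received 2.5 µM zinc chloride. They were harvested 24 h and 12 h after that addition, from acetate-containing medium under continuous light. The members are the 17690 of 17737 genes whose status was OK in both conditions of the deposited table. Values are FPKM (fragments scaled to the length of the transcript and the size of the library), and every gene has 1 value in each condition with confidence bounds on either side. The design states 4 biological replicates for each condition, but the values used here are not split by replicate, so differences between conditions carry no replicate check and no p-value. Bounds are printed as intervals, and the sources used here do not give their level. The other conditions used here are cells of the same resupply course at 1.5, 3 and 4.5 h, zinc-deficient cells at 0 h, and the late and early zinc-replete cultures. No condition was followed over these hours without added zinc, so zinc status and the age of the culture cannot be told apart.

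Zinc is a cofactor of many enzymes, carbonic anhydrases among them, and algal cells take it up through transporters of the ZIP family. Chlamydomonas also runs a carbon concentrating mechanism, in which bicarbonate transporters and carbonic anhydrases deliver CO2 to Rubisco. Its genes are known to be induced when CO2 is scarce, through the regulator CIA5 and, for part of the set, the MYB transcription factor LCR1.

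Few genes were called over the interval, and low-CO2 genes made up the lowest end of it. A gene was called where the log2 ratio of (FPKM + 1) at 24 h over 12 h was at least 1 in size, the intervals did not overlap and the gene averaged at least 1 FPKM across conditions. Of the 17690 members, 11462 passed this filter and 6228 did not. Among those that passed, 24 were higher and 52 were lower at 24 h, together 0.663% of the genes tested (0.209% higher and 0.454% lower). Rose and fell refer below to genes with such a call, and counts within gene lists are to be read against these shares. The median log2 ratio was 0.02, the 1st and 99th percentiles were -0.68 and 0.67, and 94.8% of genes lay within 0.5 of 0. By the same rule 2430 genes (21.2%) were called at 1.5 h over 0 h, 576 (5.02%) at 3 h over 1.5 h, 40 (0.348%) at 4.5 h over 3 h and 346 (3.02%) at 12 h over 4.5 h. These steps differ in length and neighbouring ones share a condition, so the counts are given side by side only.

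**Figure D1:**
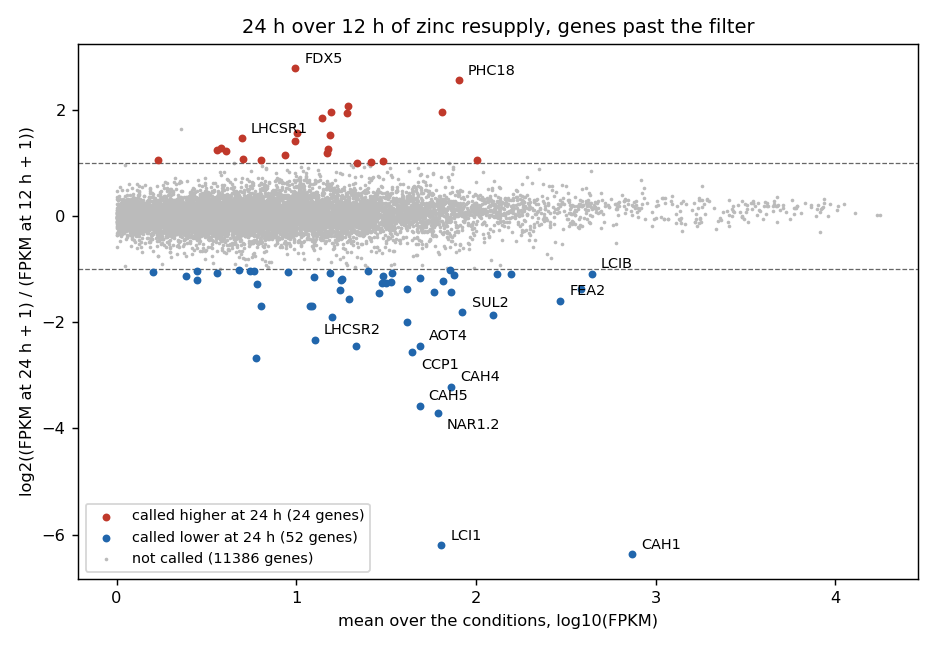
Log2 ratio of 24 h over 12 h (pseudocount of 1 FPKM) against the mean FPKM over the conditions (log10 axis), for the 11462 genes past the filter. Red points are the 24 genes called higher, blue points the 52 called lower, grey points uncalled genes, and dashed lines mark the threshold of 1 on the log2 scale; CAH1 and LCI1 lie below -6.

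Periplasmic and membrane components of the carbon concentrating mechanism fell the furthest. CAH1 (Cre04.g223100), the periplasmic carbonic anhydrase and the classical marker of low CO2, was at 11.3 FPKM (interval 9.44 to 13.1) at 24 h against 1017 FPKM (740.0 to 1294) at 12 h, a log2 ratio of -6.37. At 0, 1.5, 3 and 4.5 h its level had been 286, 1135, 1224 and 1688 FPKM, and it was 8.10 FPKM in late and 548 FPKM in early replete cells. The 24 h and late replete levels of CAH1 were thus the lowest of the 8 and their intervals overlapped. LCI1 (Cre03.g162800), a plasma membrane protein of inorganic carbon uptake, was at 0.336 FPKM (0.0937 to 0.578) at 24 h against 97.6 FPKM (76.0 to 119) at 12 h, a log2 ratio of -6.21. Earlier in the course LCI1 was at 2.59, 98.8, 91.3 and 192 FPKM, with 0.140 FPKM in late and 29.8 FPKM in early replete cells. Like CAH1, it was high from 1.5 to 12 h and low at 24 h and in late replete cells.

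Further low-CO2-inducible carriers also fell. NAR1.2, also known as LCIA, a bicarbonate channel of the chloroplast envelope, was at 1.53 FPKM (1.10 to 1.97) at 24 h against 32.0 FPKM (25.4 to 38.6) at 12 h. Its earlier values were 49.1 FPKM at 0 h, 246 FPKM at 1.5 h, 59.7 FPKM at 3 h and 79.9 FPKM at 4.5 h, and it was at 3.07 FPKM in late and 19.7 FPKM in early replete cells. The 24 h level was the lowest of all 8 conditions for this gene. CCP1, a low-CO2-inducible carrier protein, was at 5.34 FPKM (4.37 to 6.30) at 24 h against 36.6 FPKM (29.5 to 43.8) at 12 h. Its close relative CCP2 was at 4.72 FPKM (3.86 to 5.59) at 24 h against 11.9 FPKM (9.95 to 13.8) at 12 h. CCP1 and CCP2 peaked at 1.5 h, at 155 and 204 FPKM, and stood at 5.04 and 3.66 FPKM in late and at 19.7 and 10.0 FPKM in early replete cells. Similar gene copies can share reads, so the division between CCP1 and CCP2 is uncertain. The call of CCP2 was lost with a pseudocount of 5 FPKM in place of 1 (log2 ratio -0.80) and at a 4-fold threshold.

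The mitochondrial carbonic anhydrases fell as a pair. CAH4 was at 13.3 FPKM (11.1 to 15.5) at 24 h against 132 FPKM (102 to 161) at 12 h, a log2 ratio of -3.21, and CAH5 at 6.25 FPKM (4.98 to 7.51) against 85.4 FPKM (66.7 to 104), a log2 ratio of -3.58. Their courses had 2 high points, 198 and 152 FPKM at 1.5 h and the 12 h values, around a low point of 29.1 and 22.9 FPKM at 3 h. In late replete cells they stood at 14.7 and 7.59 FPKM and in early ones at 30.0 and 20.2 FPKM. CAH4 and CAH5 are near-identical neighbouring genes on chromosome 5 (772398 to 774699 and 768025 to 770332, coordinates of the table), so the split of reads between them is uncertain as well. Of 11 carbonic anhydrases tested, 3 fell, 0 rose and 8 were not called (median log2 ratio -0.02, against 0.02 over all genes). Of all genes tested, 0.454% were lower and 0.209% higher at 24 h. CAH8, nearest to a call on the other side, was at 83.1 FPKM at 24 h against 46.9 FPKM at 12 h.

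The regulator LCR1, a MYB factor that acts on CAH1 and LCI1 under low CO2, was called lower with a pseudocount of 1 FPKM. It was at 1.00 FPKM (0.729 to 1.27) at 24 h against 5.47 FPKM (4.60 to 6.35) at 12 h. Before that LCR1 was at 6.96, 14.7, 8.18 and 8.01 FPKM from 0 to 4.5 h, and it was at 0.851 FPKM in late and 5.88 FPKM in early replete cells. LCI23, a low-CO2-inducible gene, was at 0.0511 FPKM (0 to 0.129) at 24 h against 2.40 FPKM (1.68 to 3.12) at 12 h, after a peak of 54.8 FPKM at 1.5 h. With a pseudocount of 5 FPKM neither gene was called (log2 ratios -0.80 for LCR1 and -0.55 for LCI23, against -1.69 for each with 1 FPKM), nor was either at a 4-fold threshold. LCIB, a stromal protein that recaptures CO2 around the pyrenoid, was at 313 FPKM (253 to 372) at 24 h against 665 FPKM (525 to 804) at 12 h. Its replete levels were close to each other, 449 FPKM in late and 438 FPKM in early cells. Its partner LCIC was not called, at 185 FPKM (152 to 217) at 24 h against 319 FPKM (258 to 380.3) at 12 h. Over the carbon concentrating list, which includes genes named low-CO2 inducible (LCI), 7 of 28 tested fell, 0 rose and 21 were not called. Of all genes tested, 0.454% were lower and 0.209% higher at 24 h. The list had a median log2 ratio of -0.41 against 0.02 over all genes. That median was -0.21 with a pseudocount of 5 FPKM and -0.54 with 0.1 FPKM.

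**Figure D2:**
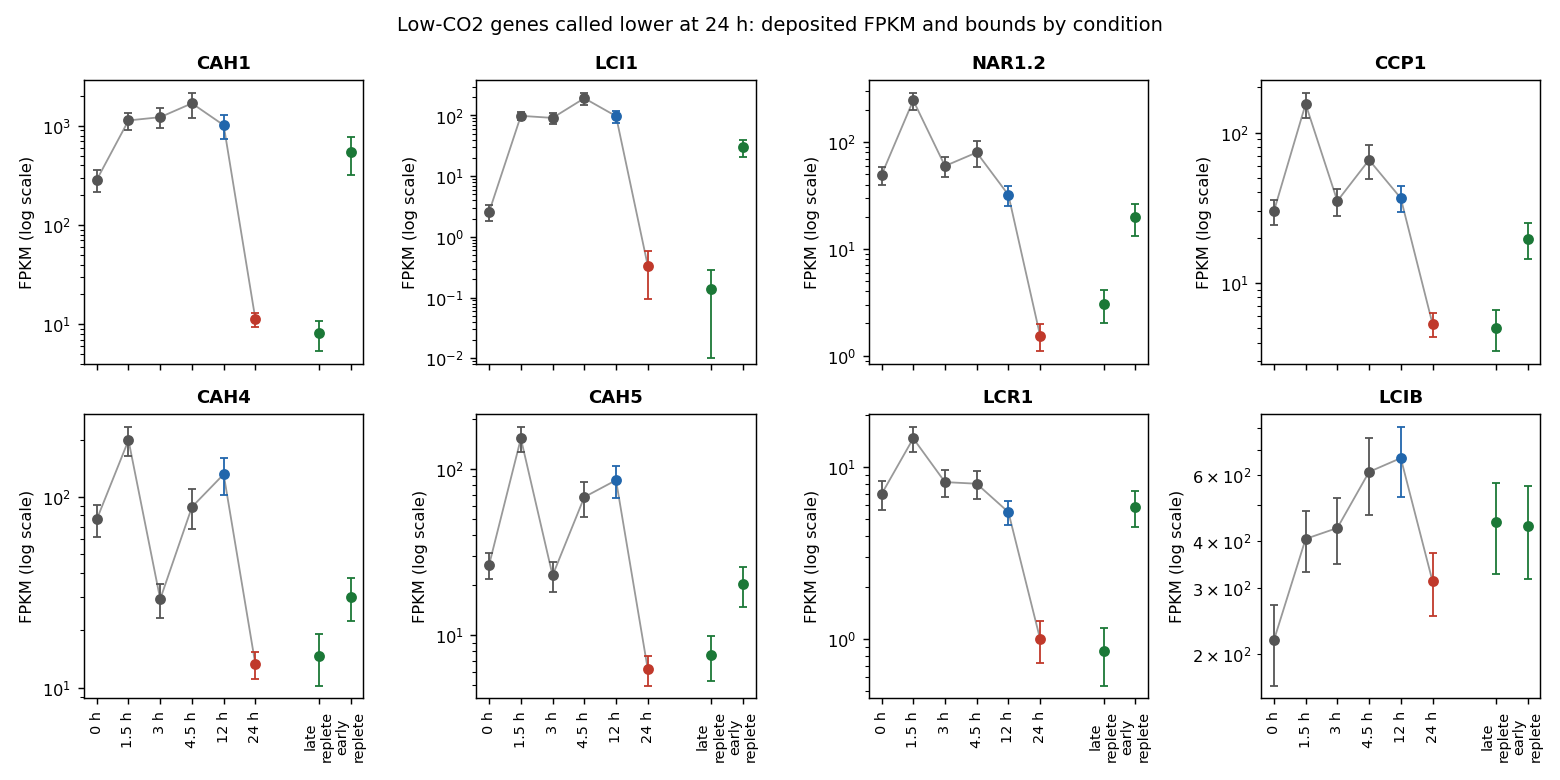
FPKM (log scale) of 8 low-CO2 genes called lower at 24 h, by condition in order of time (not to scale) and then in late and early replete cells. Points are the deposited values and bars the deposited bounds, drawn from 0.01 where they reach lower; red marks 24 h, blue 12 h, green replete cells. In CAH1, LCI1, NAR1.2, CCP1, CAH4, CAH5 and LCR1 the late replete point lies below the early one, while LCIB has near-equal replete levels.

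The genes that fell were also set against 2 comparisons that share no condition with the step. Of the 52 genes lower at 24 h, 11 (21.2% of them, and 13.9% of the 79 genes lower in late than in early replete cells) were lower in the late culture, and 2 were higher there. Of all genes tested, 1.43% were called between late and early replete cells, 0.742% higher and 0.689% lower in late ones. Those 11 were CAH1, LCI1, NAR1.2, CAH5, CCP1, CCP2, LCR1, LCI23 and 3 genes with an identifier alone, Cre12.g554100, g1913 and g15294. Cre12.g554100 was at 1.71 FPKM (1.27 to 2.16) at 24 h against 13.7 FPKM (11.4 to 16.1) at 12 h, and at 2.33 FPKM in late against 19.1 FPKM in early replete cells. In zinc deficiency 30 of the 52 (57.7%, and 4.69% of the 639 genes higher at 0 h than in both replete cultures) were higher and 3 were lower. Of all genes tested, 11.3% were called in deficiency, 5.58% higher and 5.76% lower. The median log2 ratio of the 52 was 2.34 at 0 h over early replete cells and 2.86 over late ones, against -0.09 and -0.04 for all genes tested.

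The median level of the 52 genes was 43.3 FPKM at 0 h, 47.3 FPKM at 1.5 h, 29.0 FPKM at 3 h, 25.5 FPKM at 4.5 h, 20.8 FPKM at 12 h and 6.31 FPKM at 24 h, with 5.60 FPKM in late and 9.60 FPKM in early replete cells. AOT4, an amino acid transporter gene, was at 2.74 FPKM (2.22 to 3.25) at 24 h against 19.3 FPKM (16.5 to 22.1) at 12 h. From 0 to 4.5 h AOT4 was at 110.3, 115, 89.0 and 48.1 FPKM, and it was at 1.65 FPKM in late and 2.95 FPKM in early replete cells. Only at 24 h, among the resupply times, did its interval reach a replete one.

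Sulfate transporter genes also had their high levels early. SUL2 was at 10.5 FPKM (8.88 to 12.1) at 24 h against 39.4 FPKM (33.1 to 45.6) at 12 h, after 187, 202, 139 and 80.9 FPKM at 0, 1.5, 3 and 4.5 h. It stood at 5.50 FPKM in late and 9.52 FPKM in early replete cells, so the 24 h interval overlapped the early one. SUL2 shares its span with Cre17.g723300, listed at 0.154 FPKM at 24 h and 0.191 FPKM at 12 h, so reads of both could have been divided. SLT2, a sodium and sulfate cotransporter, was at 6.38 FPKM (5.34 to 7.42) at 24 h against 13.9 FPKM (11.8 to 16.0) at 12 h, with 219 FPKM at 0 h and replete levels of 7.47 FPKM in late and 9.69 FPKM in early cells. SLT1, of the same family, was at 1.45 FPKM (1.14 to 1.77) at 24 h against 3.64 FPKM (3.09 to 4.20) at 12 h. It was not called with a pseudocount of 1 FPKM, though its intervals did not overlap. With 0.1 FPKM its values would pass the ratio and interval thresholds as lower. Of 15 sulfur genes tested, 2 fell, 0 rose and 13 were not called (median -0.13), while 0.454% of all genes tested were lower. The call of SLT2 was lost with a pseudocount of 5 FPKM (log2 ratio -0.73).

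Photoprotective antenna proteins of the LHCSR family, which dissipate excess light energy, were called in both directions, though the calls of LHCSR1 and LHCSR3 depended on the settings. LHCSR2 was at 0.523 FPKM (0.251 to 0.795) at 24 h against 6.64 FPKM (5.46 to 7.82) at 12 h, and LHCSR3 at 1.32 FPKM (0.878 to 1.76) against 6.54 FPKM (5.38 to 7.69). Both had been highest at 0 h, at 66.1 and 58.6 FPKM, and lay at 3.27 and 3.48 FPKM at 3 h. Their 24 h levels were the lowest of the 8 conditions, below the replete levels of 1.62 and 3.65 FPKM in late and of 3.36 and 3.21 FPKM in early cells. LHCSR2 and LHCSR3 are similar, adjacent genes on chromosome 8, and the division of reads between them is uncertain. LHCSR1 rose instead, to 5.34 FPKM (4.25 to 6.44) at 24 h, against 1.29 FPKM (0.890 to 1.69) at 12 h. It had been at 0.568, 0.113, 0.197 and 0.674 FPKM from 0 to 4.5 h, and its 24 h level stayed under the 10.8 FPKM of late and 20.9 FPKM of early replete cells. With a pseudocount of 5 FPKM the call of LHCSR1 (log2 ratio 0.72, against 1.47 with 1 FPKM) and that of LHCSR3 (-0.87, against -1.70) were lost, as they were at a 4-fold threshold, and LHCSR1 also lost its call with a mean of at least 5 FPKM. LHCSR2 was called under all 9 settings. The other 6 of 9 photoprotection genes tested were not called (median 0.04).

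FEA2, which encodes a secreted protein of iron assimilation, was the 1 iron gene of 6 tested that was called, while 0.454% of all genes tested were lower. It was at 120.0 FPKM (100.3 to 139.7) at 24 h against 365 FPKM (294 to 436) at 12 h. After 73.5 FPKM at 0 h it had stood at 599, 540.2 and 517 FPKM from 1.5 to 4.5 h, with 85.4 FPKM in late and 57.2 FPKM in early replete cells. Its neighbour and relative FEA1 was at 1318 FPKM (968 to 1668) at 24 h against 1079 FPKM (827 to 1330.3) at 12 h and was not called. The iron list had a median log2 ratio of 0.18, and of 0.07 without a filter on low values or with a mean of at least 5 FPKM.

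Other genes with a symbol that fell had varied courses. BCS1, named for a protein of respiratory complex III assembly in yeast, was at 19.7 FPKM (16.8 to 22.7) at 24 h against 47.5 FPKM (40.0 to 55.0) at 12 h, and RDP3 at 8.05 FPKM (6.60 to 9.51) against 23.4 FPKM (20.1 to 26.8). Both were highest at 0 h, at 209 and 252 FPKM. NRX3, named as a nucleoredoxin, was at 2.83 FPKM (2.07 to 3.59) at 24 h against 6.71 FPKM (5.15 to 8.28) at 12 h. MCC1 was at 1.63 FPKM (1.27 to 1.99) at 24 h against 4.78 FPKM (4.06 to 5.50) at 12 h, and, unlike the others, stood at 7.17 FPKM in late against 1.95 FPKM in early replete cells. NRX3 and MCC1 were not called with a pseudocount of 5 FPKM (log2 ratios -0.58 and -0.56) or with a mean of at least 5 FPKM. The lowest ratio among genes with an identifier alone was that of g18292, at 0.166 FPKM (0.0243 to 0.308) at 24 h against 6.40 FPKM (5.26 to 7.54) at 12 h.

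**Figure D3:**
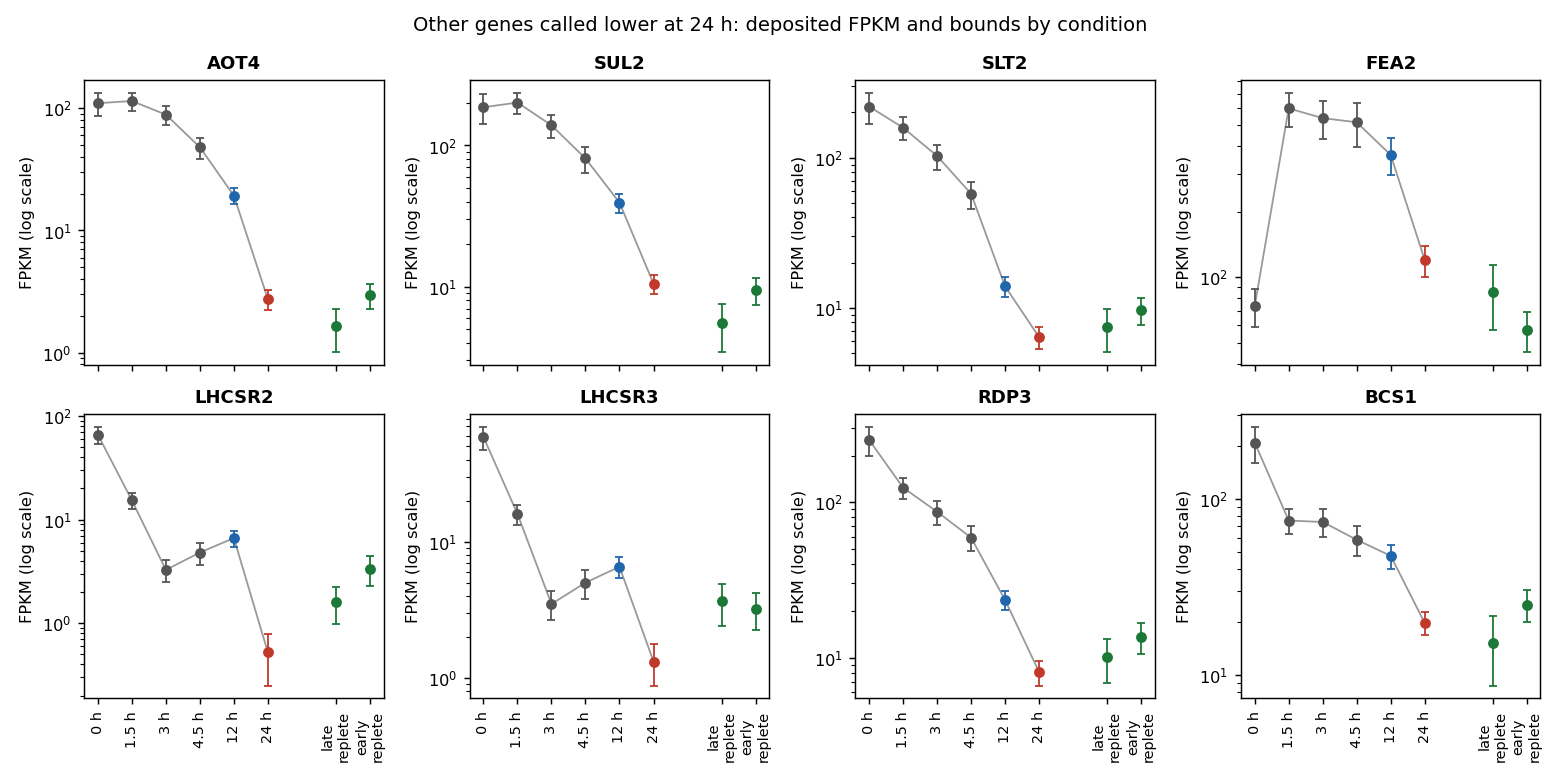
FPKM (log scale) of 8 further genes called lower at 24 h, with conditions, colours and bars as in the plot of low-CO2 genes. AOT4, SUL2, SLT2 and RDP3 fall across the resupply times from 1.5 h on, LHCSR2 and LHCSR3 have a second high point at 12 h, and FEA2 peaks at 1.5 h with 599 FPKM.

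The genes that rose had a low median level through the first hours of resupply, 0.549, 0.884, 0.825 and 0.736 FPKM at 0, 1.5, 3 and 4.5 h. Not all of them were low then, as the upper quartiles at these times were 8.20, 8.72, 9.62 and 6.78 FPKM. The median of the 24 was 8.97 FPKM at 24 h against 1.96 FPKM at 12 h, with 22.8 FPKM in late and 20.9 FPKM in early replete cells. Of the 24, 16 (66.7%, and 2.42% of the 660 genes lower at 0 h than in both replete cultures) were lower in deficiency and 3 were higher. Of all genes tested, 5.76% were lower and 5.58% higher in deficiency. Between the replete cultures 2 of the 24 were higher and 3 were lower in the late one, against 0.742% and 0.689% of all genes tested.

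PHC18, a pherophorin of the hydroxyproline-rich extracellular matrix family, stood far below its replete level even at 24 h. It was at 8.06 FPKM (6.80 to 9.31) at 24 h against 0.538 FPKM (0.352 to 0.725) at 12 h, and at 0.0292, 0.0450, 0.0199 and 0.0458 FPKM from 0 to 4.5 h. In replete cells PHC18 was at 231 FPKM in late and 402 FPKM in early cultures. The other 21 of 22 pherophorin, matrix metalloprotease and related genes tested were not called (median 0.07). PHC8 lay just under the threshold, at 110.5 FPKM against 54.8 FPKM, a log2 ratio of 0.997.

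FDX5, a chloroplast ferredoxin whose gene is known to be induced in darkness and without oxygen, had the highest ratio of all called genes, a log2 ratio of 2.78. It was at 20.8 FPKM (17.5 to 24.2) at 24 h against 2.17 FPKM (1.62 to 2.73) at 12 h. Across 0, 1.5, 3 and 4.5 h it was at 12.3, 9.42, 6.90 and 4.51 FPKM, so 12 h was its lowest point and 24 h its highest. FDX5 was at 6.34 FPKM in late and 16.5 FPKM in early replete cells, and the 24 h interval overlapped the early one. None of the other 11 genes of plastid electron transport and ATP synthase tested was called (median 0.26).

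PTA3, a phosphate transporter family gene, was at 9.10 FPKM (7.71 to 10.5) at 24 h against 3.77 FPKM (3.17 to 4.37) at 12 h. It had a first high point of 8.84 FPKM at 3 h, and stood at 1.58 FPKM in late and 7.81 FPKM in early replete cells. It was the 1 of 14 phosphate genes called (median 0.06, and 0.25 with a mean of at least 5 FPKM), while 0.209% of all genes tested were higher. The call of PTA3 was lost with a pseudocount of 5 FPKM (log2 ratio 0.68). HRP3 was at 33.0 FPKM (28.1 to 37.9) at 24 h against 13.1 FPKM (11.2 to 15.1) at 12 h, and here the 24 h level was above both replete levels, 19.4 FPKM in late and 18.0 FPKM in early cells. Among genes with an identifier alone, Cre14.g613800 was at 8.88 FPKM (7.52 to 10.2) at 24 h against 1.36 FPKM (1.07 to 1.65) at 12 h, with 66.6 FPKM in late and 76.2 FPKM in early replete cells. Cre01.g045200 was at 29.8 FPKM (25.4 to 34.3) at 24 h against 6.88 FPKM (5.57 to 8.20) at 12 h, and its 24 h interval overlapped that of early replete cells (28.4 FPKM, 22.3 to 34.4). Cre08.g372200 had been high in deficiency, at 286 FPKM, dropped to 1.07 FPKM at 1.5 h, and was at 37.1 FPKM (31.6 to 42.7) at 24 h against 8.86 FPKM (7.30 to 10.4) at 12 h. Its replete levels were higher, 99.6 FPKM in late and 79.6 FPKM in early cells.

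**Figure D4:**
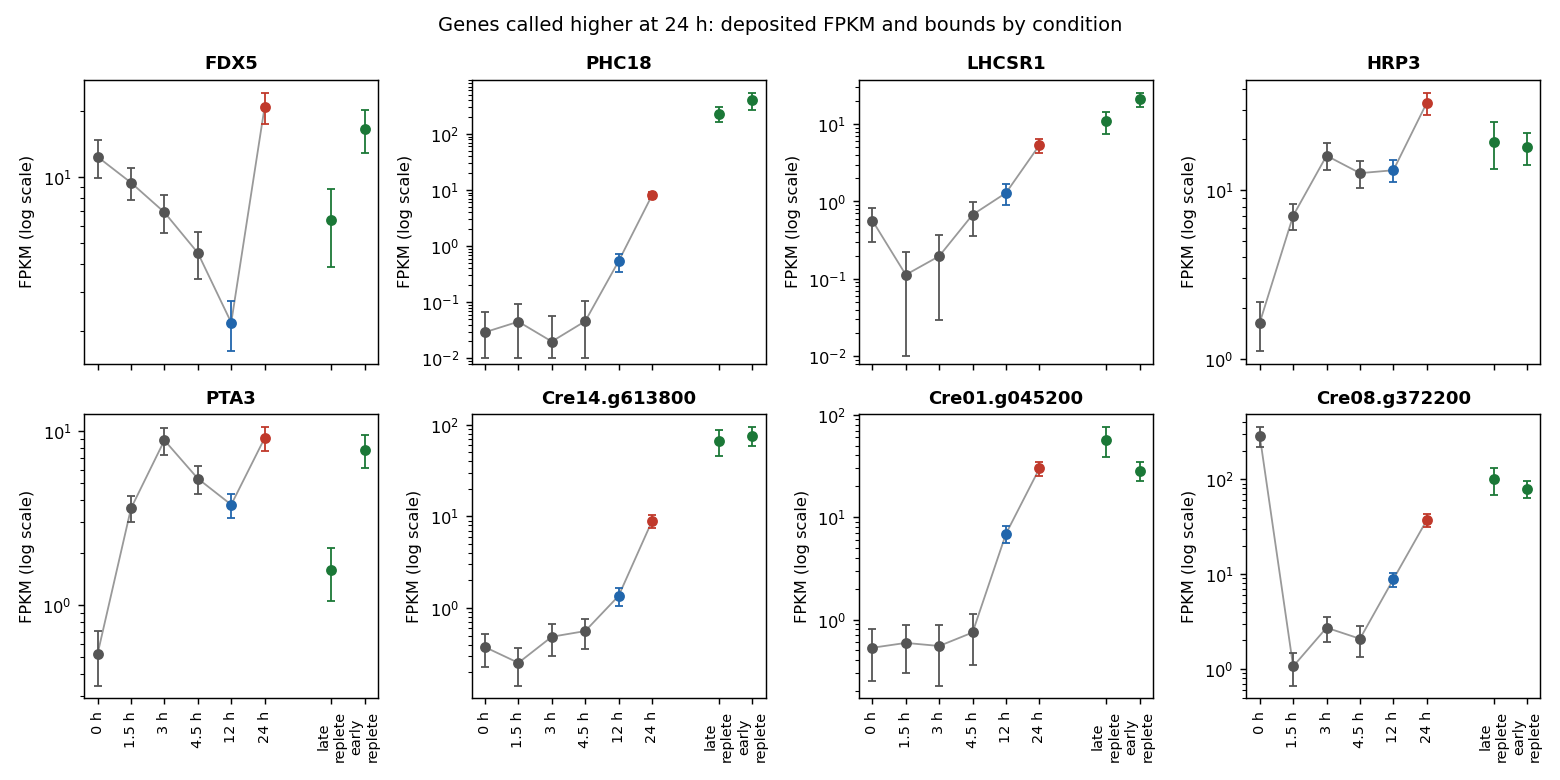
FPKM (log scale) of 8 genes called higher at 24 h, with conditions, colours and bars as in the plot of low-CO2 genes. PHC18, Cre14.g613800, LHCSR1 and Cre08.g372200 lie below both replete points at 24 h. FDX5 is lowest at 12 h with 2.17 FPKM, and HRP3 lies above both replete points with bars apart.

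The zinc and copper genes that mark deficiency showed no call in this interval with a pseudocount of 1 FPKM. Of 12 ZIP family genes tested, 0 were called (median 0.01, and -0.10 with a mean of at least 5 FPKM), as were 0 of 4 MTP transporters (median 0.15) and 0 of 14 copper genes (median 0.18). Over all genes tested 0.663% were called, so 0 calls in lists this small is near that share. The 24 h and 12 h intervals lay apart for 1 ZIP gene (ZRT1, lower) and for 4 higher and 1 lower copper genes. With a pseudocount of 0.1 FPKM the values of ZRT1 (lower) and CTR2 (higher), given next, would pass the ratio and interval thresholds. Calls of the other genes with 0.1 FPKM were not tracked. ZRT1 was at 0.244 FPKM (0.131 to 0.357) at 24 h against 0.646 FPKM (0.476 to 0.816) at 12 h, and ZRT3 at 0.152 FPKM against 0.235 FPKM. Both were thus far below their 0 h levels of 313 and 103 FPKM at both times. Nearest to a call were CTR2, a copper transporter, at 5.25 FPKM (4.43 to 6.08) at 24 h against 2.54 FPKM (2.12 to 2.97) at 12 h, and CRD1, an enzyme of chlorophyll synthesis, at 198 FPKM (159.7 to 237) against 112 FPKM (92.0 to 132), each with a log2 ratio of 0.82.

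Across the 42 gene lists, 33 held no called gene. Of all genes tested, 0.663% were called. The nitrogen list had 1 lower gene (AOT4) of 21 tested, with a median of 0.08. Medians of the larger uncalled lists were small and lay on both sides of the 0.02 of all genes. Flagellar associated proteins had a median log2 ratio of -0.19, and 170 of 193 had a ratio below 0, as had 65 of 71 genes of intraflagellar transport, dyneins and spokes (median -0.17), against 5370 of all 11462 genes. On the other side, a ratio above 0 was found for 74 of 84 genes of the mitochondrial respiratory chain (median 0.18), 47 of 51 cytosolic (0.17), 34 of 36 plastid (0.19) and 32 of 37 mitochondrial ribosomal protein genes (0.12), against 6092 of 11462 overall. Members of one complex or organelle are not independent, and no gene of these lists was called. After rescaling to equal total FPKM the median over all genes was -0.06, both flagellar medians were -0.26 and -0.27, and the 4 medians on the other side lay between 0.04 and 0.09. Photosystem I and II antenna genes (medians -0.06 and 0.02), photosystem I and II subunits (-0.09 and 0.05), tetrapyrrole (0.05), Calvin cycle (0.11), acetate (0.09) and cell cycle genes (-0.09) had 0 calls.

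**Figure D5:**
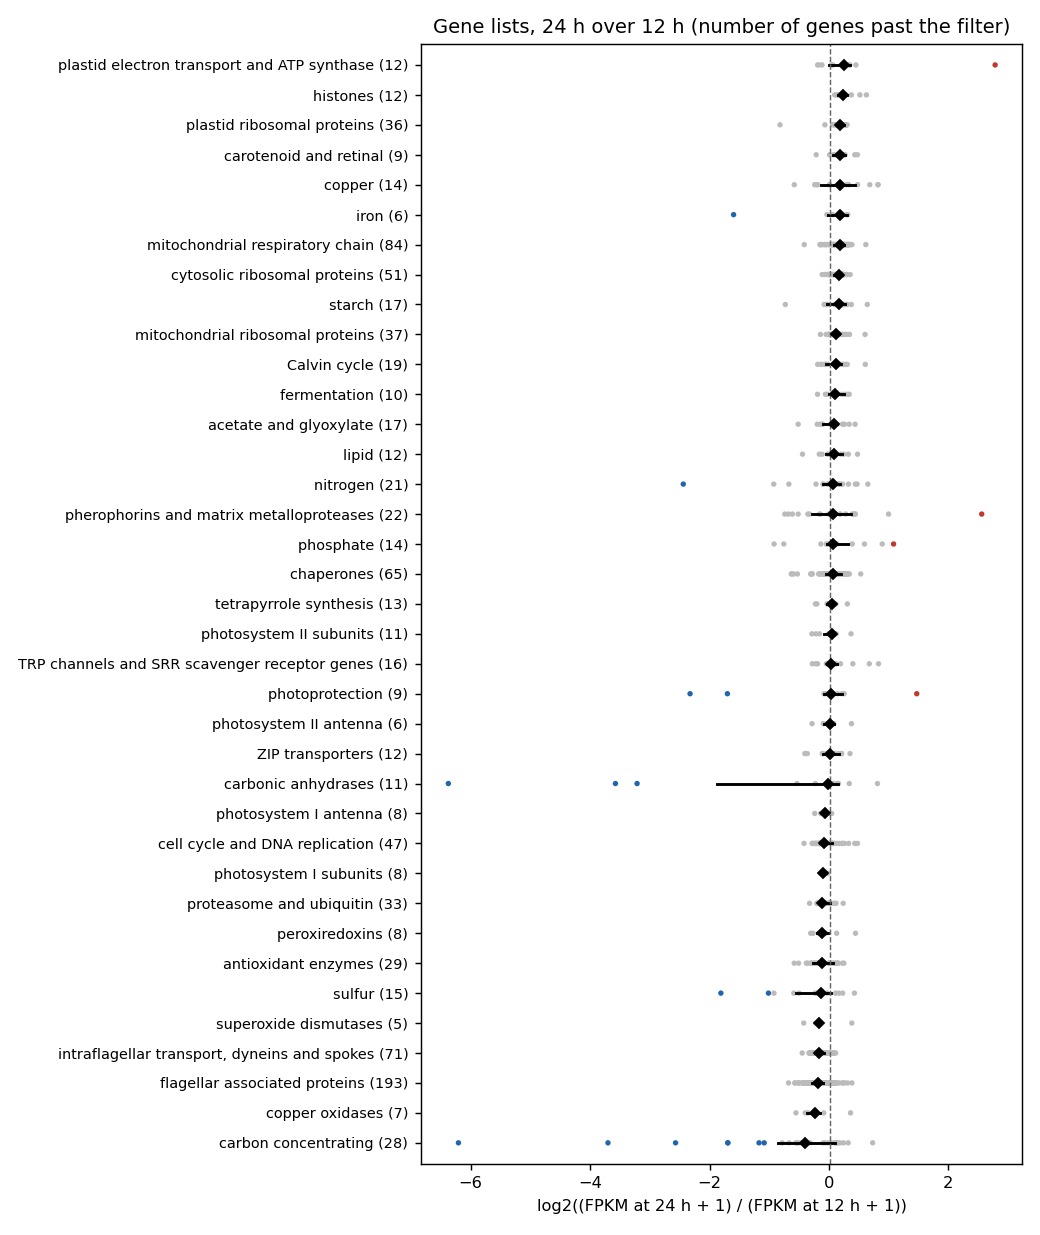
Log2 ratio of 24 h over 12 h for the members past the filter of each list with at least 5 of them. Grey points are uncalled genes, blue and red points genes called lower and higher, diamonds medians, black bars the range between quartiles, and the dashed line the median of all genes, 0.02; calls stand in 9 lists, and the carbon concentrating list has the lowest median, -0.41.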

How the data were processed

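RNA was measured in 8 conditions, and the deposited table gives, per the file headers, 1 FPKM value with 2 bounds for every gene in each of them. The authors used TopHat2 and Cuffdiff, per the submitters' processing notes; the sources used here do not give versions, genome build, the treatment of reads from similar genes or the way replicates were merged. A stranded library kit was used, per the labels' protocols. FPKM keeps no read counts, so depth is unknown and the deposited bounds are the only measure of precision. All 8 conditions were matched to columns by name.

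Genes with a status other than OK at 24 or 12 h (47) were left out; 3 of them, LHCBM1, LHCBM2 and LHCBM7, are listed at 0 as failed estimates. Starts were written from 1; 99.2% of 11713 identifiers matched to the RefSeq table of assembly Chlamydomonas_reinhardtii_v5.5 had the same start. That table held no symbols for them, so 2756 genes have the table's own symbols. Calling used pandas 2.3.3 and was tested on simulated data. The genes named are up to 8 per direction with a symbol, up to 4 or 2 called members per list and direction, and 2 per direction with an identifier alone. The other 7 called genes with a symbol (CCP2, LCIB, LCR1, RDP3, BCS1, MCC1 and NRX3), Cre08.g372200, g1913 and g15294 were named after their values were seen. Lists and genes were chosen with earlier results of these data known.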

Additional observations from a re-analysis of the deposited data

How the results depend on the processing

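No paired analysis was possible because each condition has 1 deposited value. With another pseudocount the genes higher and lower at 24 h numbered 49 and 90 (0.1 FPKM) or 7 and 30 (5 FPKM), and with another fold threshold 193 and 175 (1.5) or 3 and 10 (4). Calls between late and early replete cells were 315, 53, 679 and 11 under these 4 settings. Calls in deficiency were 675 with a pseudocount of 5 FPKM, 2594 and 306 with folds of 1.5 and 4, and 847 with a mean of at least 5 FPKM. Without a filter, with a mean of at least 5 FPKM, without the bounds or after either rescaling, the higher genes numbered 19 to 25 and the lower ones 46 to 63. All 52 lower genes kept their call under both rescalings, as did 20 (equal totals) and 22 (median-of-ratios factors) of the 24 higher ones. Of the 29 genes tracked, 13 were called under all 9 settings, CAH1, LCI1, NAR1.2, CAH4, CAH5, CCP1, AOT4, LHCSR2, FDX5 and PHC18 among them, and none changed sign. With a pseudocount of 5 FPKM the calls of LCR1, LCI23, CCP2, LHCSR1, LHCSR3, PTA3, SLT2, MCC1 and NRX3 were lost, and LHCSR1, MCC1 and NRX3 also lost theirs with a mean of at least 5 FPKM. The means over the conditions of LHCSR1, MCC1 and NRX3 were 4.99, 2.43 and 4.81 FPKM, under that minimum. A larger pseudocount pulls every log2 ratio towards 0, the more so at low levels. The genes that lost calls with 5 FPKM had levels up to 13.9 FPKM at 12 and 24 h (SLT2 at 12 h). Of 251 list medians recomputed, 17 moved by over 0.1 on the log2 scale. Low levels limit the result: the interval of LCI23 at 24 h reaches 0.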

Other observations

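Called genes included neighbours on the chromosome. In the order of gene starts, 6 pairs of adjacent genes were both called, 12 of the 76 called genes, and both genes of each pair moved the same way. The share over all adjacent pairs was not computed, so no excess of such pairs is claimed. They include CAH5 with CAH4, LHCSR3 with LHCSR2, and SUL2 (chromosome 17, 3314378 to 3329585) with Cre17.g723400 (3329802 to 3333249). Cre17.g723400 was at 14.8 FPKM (12.5 to 17.0) at 24 h against 56.2 FPKM (47.5 to 64.8) at 12 h, with 282 FPKM at 0 h, close in shape to SUL2. The remaining pairs were NRX3 with g1771, Cre09.g407950 with Cre09.g408000, both lower, and g9311 with Cre09.g398450, both higher. Near-identical or overlapping neighbours can share reads, and their part in these pairs was not tested.

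Among genes under the filter on mean level, 0 passed the ratio and interval thresholds. IRT1, a ZIP transporter gene under the filter, was at 0.0750 FPKM (0 to 0.160) at 24 h against 0.859 FPKM (0.594 to 1.12) at 12 h. One gene past the filter, g11194, had a log2 ratio of 1.63 with overlapping intervals, 3.71 FPKM (0 to 69.1) at 24 h against 0.521 FPKM (0 to 20.9) at 12 h. The small heat shock genes HSP22E and HSP22F, neighbours on chromosome 14 and uncalled, were at 83.3 and 55.3 FPKM at 24 h against 121 and 83.9 FPKM at 12 h, with intervals apart. Their 0 h levels were 1121 and 553 FPKM. At 24 h the intervals of 979 genes (8.54% of those tested) lay apart from those at 12 h, 568 above and 411 below, and 76 of them were called.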
